A study of Mus musculus with 6 samples.

Results

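The Control group of this study, 3 libraries of long-term haematopoietic stem cells (LT-HSCs) from mouse marrow, was described on its own. Its members were the libraries labelled Control 1, Control 2 and Control 3, which are 3 of the 6 libraries in all. Donor marrow of the CD45.2 allotype and the genotype Rosa26 +/+;Mx1-Cre tg/+ had been transplanted into lethally irradiated CD45.1/2 hosts, which were then injected with poly(I:C). This synthetic double-stranded RNA switches on Mx1-Cre, a recombinase transgene under an interferon-responsive promoter. Irradiation of the host, Cre and poly(I:C) were therefore common to all 3 libraries. The Rosa26 locus held no insert, whereas the other 3 libraries, from cells with a knock-in of the RNA-binding protein IMP1, were not compared here. For each library 200 cells with the surface phenotype CD45.2+ LSK CD150+ CD48- CD34- were sorted 8 weeks after the last injection. Hosts of the type CD45.1/2 carry CD45.2 too, and the labels do not say whether cells with CD45.1 were gated out. The labels speak of 3 biological replicates, but do not say whether these were separate donors, separate recipients or pools.

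LT-HSCs are the marrow cells that can rebuild all blood lineages for life. They divide rarely, sit in a niche that presents stem cell factor, angiopoietin and CXCL12, and are identified by surface proteins because no single transcript defines them. Their state is held by a set of transcription factors that bind together at regulatory elements, among them TAL1, LMO2, GATA2, RUNX1, FLI1, ERG and MEIS1. They are usually described as relying strongly on glycolysis while keeping a functional set of mitochondria.

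The libraries held 25749898 to 27338450 counts. Levels are given as CPM, counts per 1000000 counts of the library after scaling by the trimmed mean of M values (TMM), in the order Control 1, Control 2 and Control 3. Levels are compared between genes only as RPKM, which is CPM per kilobase of the longest annotated transcript. A gene counts as expressed here when it reached 1 CPM in all 3 libraries, and the spread is the coefficient of variation (CV), the SD as a percentage of the mean over the 3 libraries. By that rule 10716 of 21761 genes, or 49.2%, were expressed, and 6440 genes, or 29.6%, had 0 counts in all 3. Counts of expressed genes in the lists below are to be read beside this 49.2% and the 51.7% of protein-coding genes. The lists were chosen with earlier results of these data known. A total of 0 allows a level of up to 0.0378 CPM over the group, which is 3 of 79414512 counts. Intervals of that kind cover counting error only, since the cDNA was amplified without molecular identifiers. In sorted bulk material, fewer cells carrying a transcript and less transcript per cell cannot be told apart. With a single group there was no test, and all values are descriptions.

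All 5 genes given as markers of the cells were expressed in every library. Meis1, a homeodomain partner of Hox proteins, stood at 1049, 991 and 860.1 CPM. Hlf, a basic leucine zipper factor tied to stem cell maintenance, stood at 185, 302 and 226 CPM. Mecom, the zinc finger factor also known as EVI1, stood at 107, 131 and 79.7 CPM. Hlf and Mecom were both highest in Control 2, and their CVs were 25% and 24.4%. Procr, the protein C receptor used to enrich LT-HSCs, was measured at 79.4, 68.3 and 91 CPM. Slamf1, which encodes the CD150 antigen of the gate, was measured at 82.6, 121 and 100.4 CPM. Per kilobase, Meis1 led with 128 RPKM, ahead of Procr at 49.5 RPKM, Hlf at 42.2 RPKM, Slamf1 at 22.9 RPKM and Mecom at 18.6 RPKM.

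**Figure D1:**
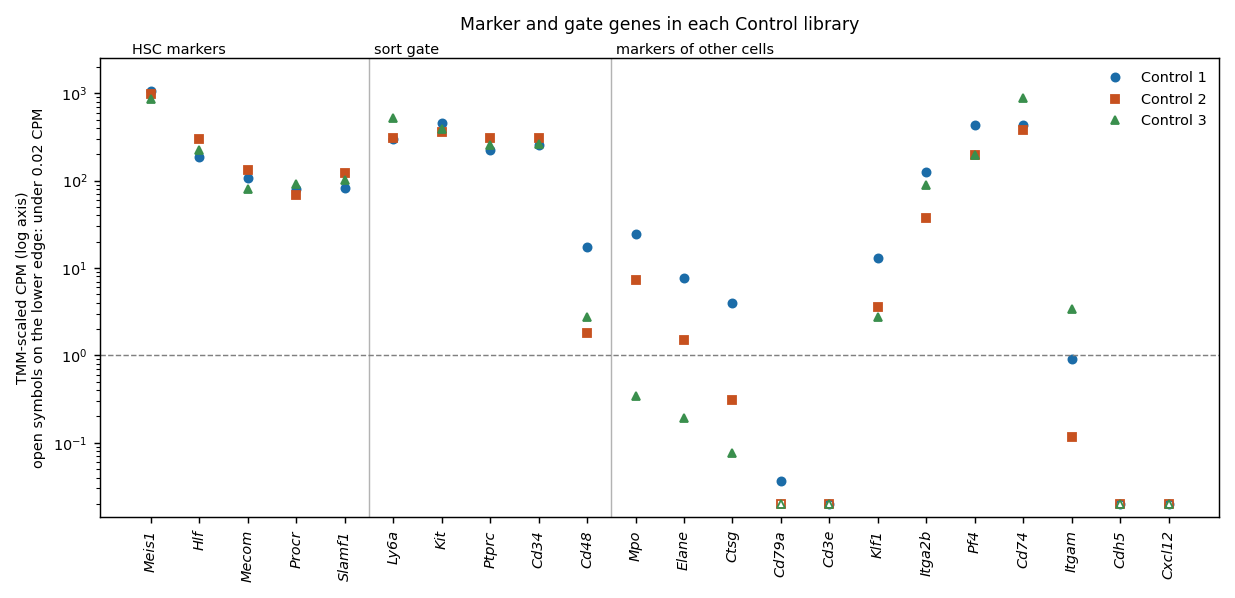
Level of each gene in the 3 Control libraries as TMM-scaled CPM on a log axis, 1 symbol per library, with the dashed line at 1 CPM and open symbols for values under 0.02 CPM. The stem cell markers lie between 68.3 and 1049 CPM in every library, Cd3e, Cdh5 and Cxcl12 have 0 counts in all 3, and Cd48, Mpo, Elane and Ctsg are highest in Control 1.

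The transcripts behind the sort gate did not all follow the surface phenotype. Ptprc, which encodes the CD45 antigen, stood at 226, 309 and 255 CPM. Kit, the stem cell factor receptor, stood at 459.6, 359 and 387 CPM. Ly6a, which encodes Sca-1, stood at 296, 309.6 and 515 CPM and was highest in Control 3. Cd34, whose protein was gated out, was nevertheless present at 255, 309 and 259.8 CPM. Its per-length level of 89.6 RPKM lay beside that of Kit, 76.7 RPKM, and its CV was 10.8%. Cd48, also gated out, differed far more between libraries, at 17.6, 1.81 and 2.73 CPM. Control 1 was the high library for Cd48 and the other two lay close to each other.

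Of 50 other genes tied to LT-HSCs, 46 were expressed, or 92%, against 49.2% of all genes, and Clca1 had 0 counts. The leaders per length were the interferon-induced membrane protein genes Ifitm3 (1631 RPKM) and Ifitm1 (849 RPKM), the surface antigen gene Ly6e (776 RPKM), Pdzk1ip1 (393 RPKM) and Adgrg1 (299 RPKM). Adgrg1, the adhesion receptor GPR56, was among the steadiest of the list at 1090.3, 1098 and 1054 CPM. Esam, an endothelial and stem cell adhesion molecule, stood at 177, 183 and 202 CPM. Other members were uneven. Vwf, the von Willebrand factor gene that marks platelet-biased stem cells, stood at 85.7, 27.2 and 49.5 CPM. Eya2, a transcriptional coactivator, stood at 109, 183 and 58.1 CPM, and Ctnnal1, the alpha-catulin gene used as a stem cell reporter, at 45.1, 10.3 and 24.7 CPM. Control 1 was highest for Vwf and Ctnnal1, and Control 2 was highest for Eya2 and lowest for the other two. Fgd5 and Hoxb5, also used as reporters of LT-HSCs, were low but present in every library, at 15.9, 18.6 and 17.9 CPM and 8.51, 17 and 18.2 CPM.

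Genes of more mature progenitors were present in part. Flt3, the receptor that marks multipotent progenitors, stood at 12.3, 7.74 and 10.4 CPM, a per-length level of 2.56 RPKM against 76.7 RPKM for Kit. The lymphoid genes Rag1, Rag2 and Ccr7 had 0 counts, Dntt was counted only in Control 1, and Il7r did not exceed 0.116 CPM in any library. In all, 10 of the 16 genes of this list were expressed, with summed levels of 877, 817 and 868 CPM.

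Most markers of B cells, of T and NK cells and of neutrophils did not pass the rule, with exceptions that were present in every library. Of 12 B cell markers only Cd79b, a chain of the B cell receptor complex, was expressed, at 82.7, 67.4 and 68.3 CPM, while Ms4a1, Pax5 and Ebf1 had 0 counts and Cd79a had 1 count in all. Of 15 T and NK cell markers 5 were expressed. Nkg7, a cytotoxic granule gene, led with 383, 291 and 198 CPM. Lck, a kinase of T cell receptor signalling, stood at 8.62, 26.7 and 11.2 CPM, and Cd8a, Cd8b1 and Cd247 passed the rule at no more than 5.2 CPM. Cd3e, Cd3g, Cd4, Zap70, Gzma and Gzmb had 0 counts. Of 17 neutrophil genes 6 were expressed, led by Prtn3, the proteinase 3 gene, at 226, 239 and 285 CPM. Its granule partners differed between libraries. Mpo, the myeloperoxidase gene, stood at 24.5, 7.21 and 0.347 CPM. Elane, the neutrophil elastase gene, stood at 7.78, 1.5 and 0.193 CPM, and Ctsg, the cathepsin G gene, at 3.93, 0.308 and 0.0770 CPM. All 3 were highest in Control 1 and lowest in Control 3, and did not pass the rule. Other members had another order. The granule genes Ngp and Camp were highest in Control 3, Ngp at 2.0, 2.5 and 8.28 CPM and Camp with 3.12 CPM there, and S100a8 and S100a9, which encode the calprotectin chains, were highest in Control 2, at 9.16, 11.7 and 5.05 CPM and 1.89, 4.35 and 1.19 CPM. The summed level of the neutrophil list was 338, 324 and 383 CPM, highest in Control 3. Most of it came from Prtn3 and from Csf3r, at 50.4, 50.3 and 72.7 CPM, both highest in Control 3. The sum therefore does not show the order of the other members. Mmp8, Mmp9 and Retnlg had 0 counts.

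Erythroid genes were led by Car2, carbonic anhydrase 2, at 4016, 3971 and 3204 CPM, or 2086 RPKM per length. Gata1, the erythroid and megakaryocytic GATA factor, stood at 103, 88.1 and 68.2 CPM. Klf1, an erythroid zinc finger factor, was lower and highest in Control 1, at 13.1, 3.54 and 2.77 CPM. Those globin genes that were counted, whose products fill mature red cells, did not exceed 18.6 CPM, the highest value of Hbb-b1. No entry was found for the adult globin genes Hba-a1, Hbb-b2 and Hbb-bt. Because the adult globin genes are near-identical copies, the split of reads between them is uncertain. Rhd had 0 counts.

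Megakaryocyte and platelet genes were the most complete of the mature lists, with 15 of 18 expressed and summed levels of 1904, 1288 and 1472 CPM. Pf4, platelet factor 4, was measured at 428, 196 and 195 CPM. Itga2b, the CD41 integrin chain, stood at 125, 37.2 and 88.3 CPM, and Treml1, a platelet granule receptor, at 42.3, 4.2 and 17.5 CPM. Control 1 was the highest library for these 3 genes, and Itga2b and Treml1 were lowest in Control 2. Of the 15 expressed genes of the list, 8 were highest in Control 1, 2 in Control 2 and 5 in Control 3. Ppbp, at 5.24, 11.4 and 14.8 CPM, and F2rl2, at 46.2, 22.8 and 52.4 CPM, were among those highest in Control 3. Gp9, a chain of the platelet von Willebrand factor receptor, varied less, at 61.1, 67 and 51.5 CPM. Gp6 had 0 counts.

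MHC class II genes were abundant and highest in the same library. Cd74, the invariant chain, stood at 439, 380.2 and 887 CPM. H2-Aa stood at 208, 218 and 369 CPM, H2-Ab1 at 173, 161 and 263 CPM and H2-Eb1 at 82.6, 83.7 and 152 CPM. Control 3 was the highest library for all 4, and the other two lay close together. Of the 22 genes in the monocyte, macrophage and dendritic cell list 7 were expressed, and the summed level of the list was 1433, 1364 and 2299.7 CPM. Among its defining markers, Itgax had 0 counts, Adgre1 had 2 counts in all, Csf1r stood at 0.109, 0 and 1.81 CPM and Itgam at 0.909, 0.116 and 3.43 CPM, the last 2 being highest in Control 3. The part of such cells in the class II values was not tested. Lyz2, a lysozyme gene, varied less, at 422, 425 and 496 CPM, and was also highest in Control 3. Of the 7 expressed genes of the list, the class II genes among them, 6 were highest in Control 3, against 32.5% of all expressed genes.

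Endothelial and stromal lists were split the same way. Of 20 genes in each, 8 and 7 were expressed, or 40% and 35%, against 49.2% of all genes. Esam, Eng, Tek and Tie1 were expressed, whereas Cdh5, Sox17, Flt4, Stab2 and Mmrn2 had 0 counts. Of 20 stromal, bone and fat genes, Angpt1, the ligand of the TEK receptor, was by far the highest at 848, 735 and 844 CPM, and Lepr, the leptin receptor used to mark stromal cells, stood at 29.3, 22.4 and 26.9 CPM. Pdgfra, Col3a1, Bglap, Adipoq, Dcn and Lum had 0 counts. The niche ligand genes Kitl and Cxcl12 also had 0 counts in all 3 libraries, while the genes of their receptors, Kit and Cxcr4 (18.3, 14 and 12.9 CPM), were expressed. Tek, the receptor of angiopoietin, stood at 52.4, 46.9 and 46.2 CPM, so both the ligand and the receptor gene of that pair were counted in the same cell preparation.

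**Figure D2:**
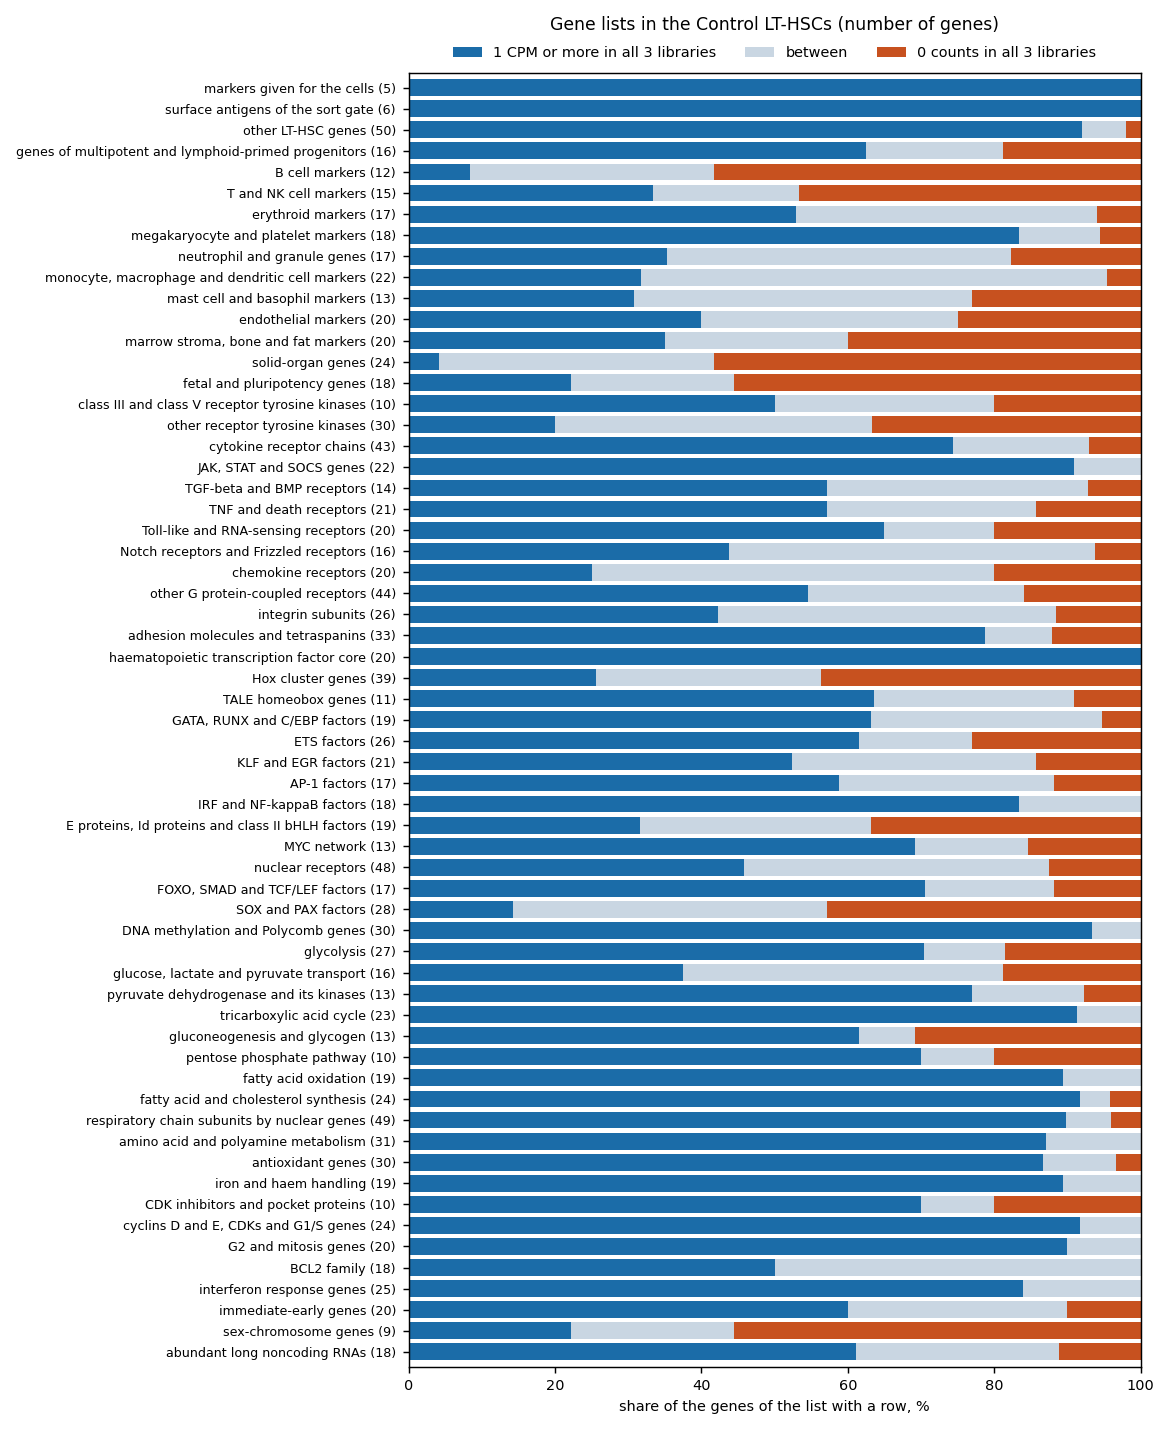
Share of the genes of each of 61 lists, in percent, that reached 1 CPM in all 3 Control libraries, had 0 counts in all 3, or lay between, with the number of genes of the list in brackets. The transcription factor core is expressed in full (20 of 20), most B cell and solid-organ genes have 0 counts, and metabolic lists are expressed for the most part, except the transport list (6 of 16).

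Receptor genes covered the known inputs of LT-HSCs unevenly. Over all receptor, adhesion and signalling lists 169 of 299 genes were expressed, or 56.5%, and 43 had 0 counts. The share was 49.2% over all genes and 51.7% over protein-coding genes. Among 43 cytokine receptor chains 32 were expressed. Il2rg, the common gamma chain, led per length with 328 RPKM and stood at 507, 392 and 742 CPM, highest in Control 3. Of the chains that pair with it, Il21r stood at 32.7, 42.3 and 42.2 CPM and Il4ra at 22.7, 3.97 and 12.2 CPM, Il7r did not exceed 0.116 CPM, and Il2rb and Il9r had 0 counts. The interferon receptor chains Ifngr1 and Ifnar1 had per-length levels of 74.3 RPKM and 29.4 RPKM, ahead of Il15ra with 28 RPKM and Il11ra1 with 21.9 RPKM. Csf3r, the G-CSF receptor, stood at 50.4, 50.3 and 72.7 CPM. Receptors of other myeloid and erythroid factors were lower, with Epor at 8.4, 17.5 and 19.8 CPM and Il3ra at 1.27, 2.12 and 2.81 CPM. Il1rap and Il6st, the shared chains of interleukin 1 and interleukin 6 receptors, were uneven at 10.3, 39.2 and 15.6 CPM and 6.87, 19.4 and 4.66 CPM, both highest in Control 2.

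Receptor tyrosine kinases were led by Kit. In the class III and class V group Tek and Tie1 followed with 10.4 RPKM and 8.47 RPKM, and Pdgfra and Flt4 had 0 counts. Of 30 other receptor tyrosine kinases 6 were expressed, led by the insulin-like growth factor receptor Igf1r with 90.3, 73.6 and 69.9 CPM, and 11 had 0 counts, among them Erbb2, Fgfr4 and Mertk. Downstream, 20 of 22 JAK, STAT and SOCS genes were expressed. Ptpn6, the SHP-1 phosphatase that restrains cytokine signals, led with 125 RPKM, followed by Stat4 with 64.7 RPKM and Jak1 with 56.3 RPKM. Stat5b was the steadiest of the list, at 45.5, 48 and 49 CPM. The feedback inhibitor genes Socs1 and Socs3 were low, at 0.436, 0.116 and 0.347 CPM and 2.76, 0.0385 and 6.62 CPM, whereas Socs2 stood at 57.6, 59.2 and 88.3 CPM and Cish at 35.3, 74 and 74.1 CPM.

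Among other signal receptors, Tgfbr3, the betaglycan co-receptor, led the TGF-beta and BMP list with 187, 165 and 161 CPM. The signalling receptors Tgfbr1 and Tgfbr2 stood at 25.7, 32.5 and 18.9 CPM and 19.6, 20.6 and 24 CPM. BMP type I receptors were scarce, with Bmpr1b at 0 counts and Bmpr1a at 1.6, 5.24 and 0 CPM. Of the Notch receptors, Notch2 stood at 201, 165 and 170 CPM and Notch1 at 13.2, 9.32 and 12.6 CPM, which per length was 17 RPKM against 1.23 RPKM. Cd27, a TNF receptor family member of stem and progenitor cells, led its list with 241, 240 and 292 CPM, and Cd40, Tnfrsf9 and Tnfrsf17 had 0 counts. Of 20 chemokine receptors 5 were expressed. Cxcr2 led with 98, 71.7 and 90.5 CPM, ahead of the atypical receptor gene Ccrl2 with 14.1 RPKM and Cxcr4 with 8.36 RPKM.

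Of 20 Toll-like and RNA-sensing receptor genes 13 were expressed. Sting1, the adaptor of cytosolic DNA sensing, stood at 87.7, 112 and 135 CPM, and Ifih1, the MDA5 sensor of double-stranded RNA, at 62.7, 65.9 and 59.7 CPM. Ddx58, the RIG-I sensor, stood at 73.6, 58 and 61.5 CPM. Tlr4, the lipopolysaccharide receptor, was lower, at 11.2, 14.5 and 16.8 CPM. Of the endosomal receptors, Tlr7, Tlr8 and Tlr9 had 0 counts, and Tlr3, which binds double-stranded RNA such as poly(I:C), was counted only in Control 3, at 2.39 CPM.

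G protein-coupled receptors were led per length by Adgrg1 with 299 RPKM, Adgrl4 with 137 RPKM and Gpr171 with 132 RPKM. The thrombin receptor genes F2rl3 and F2r stood at 68.8, 85.5 and 98.6 CPM and 142, 164 and 103 CPM. Ptger2, Cysltr1, Lpar1 and C5ar1 had 0 counts. Adhesion genes were led by tetraspanins, Cd9 with 407 RPKM, Cd81 with 352 RPKM and Cd63 with 257 RPKM, and by Cd47, the signal that restrains phagocytosis, with 162 RPKM. Of 26 integrin chains 11 were expressed. Itgb1 led with 134, 139 and 163 CPM, and the alpha chains Itga4 and Itga6 that pair with it stood at 77, 85.4 and 112 CPM and 54.1, 44.2 and 67.2 CPM. Among integrins at 10 CPM or more Itga2b was the most uneven, with a CV of 52.7%. Prom1, Cdh1 and Sele had 0 counts.

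Transcription factors of the haematopoietic core were expressed without exception, 20 of 20. Per length the order began with Lmo2 (235 RPKM), a bridging protein without DNA binding of its own, then Fli1 (184 RPKM), an ETS factor, Gfi1b (133 RPKM), a repressor, Meis1 (128 RPKM), Gata2 (118 RPKM) and Lyl1 (74.4 RPKM). Fli1, Gata2 and Lyl1 were also steady, at 631, 574 and 629 CPM, 396, 441 and 425 CPM and 122, 138 and 141 CPM. Lmo2 stood at 374, 449.6 and 378 CPM, a CV of 10.6%. Neighbours in the middle of the order, Meis1, Gfi1b and Gata2, lay within their spread of each other, with SDs of 12.8 RPKM, 24 RPKM and 6.36 RPKM. Runx1 was lower, at 100.8, 93.9 and 66 CPM, and Erg stood at 19.3, 34.1 and 35.7 CPM. Spi1, the PU.1 factor of myeloid and lymphoid fate, was the most uneven core member at 14.7, 31.6 and 5.43 CPM, with Control 2 highest and Control 3 lowest. Of the 20 core genes, 11 were highest in Control 2, against 36.8% of all expressed genes.

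Lineage factors were graded. Of the C/EBP factors that direct granulocyte fate, Cebpa had 0.255 CPM in Control 1 and 0 counts in the other two, Cebpe did not exceed 0.462 CPM and Cebpb stood at 1.42, 1.5 and 0.732 CPM. Gata3, a T cell and stem cell GATA factor, stood at 71.5, 81.7 and 76.1 CPM. The lymphoid factors Pax5, Ebf1 and Tcf7 had 0 counts, and Lef1 had 1 count in all. Over all transcription and chromatin lists, 172 of 316 genes were expressed, or 54.4%, and 59 had 0 counts. That share lay close to the 51.7% of protein-coding genes and the 49.2% of all genes. Of 28 SOX and PAX genes 4 were expressed, Sox6 at 72.5, 58.1 and 43.1 CPM, Sox12 at 21.2, 4.97 and 20.4 CPM, Sox4 at 9.2, 14.2 and 8.78 CPM and Sox13 at 4.8, 11 and 4.16 CPM, and 12 had 0 counts.

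Both Myc and Mycn, growth-promoting factors of the same family, were expressed. Myc stood at 366, 389 and 354 CPM and Mycn at 239.8, 212 and 318 CPM, and their partner Max at 41.9, 40.6 and 42.6 CPM, while Mycl had 0 counts. Per length Myc exceeded Mycn in each library, by 1.75, 2.09 and 1.27 times. Of the AP-1 factors, Batf led with 56, 62.3 and 102 CPM, highest in Control 3. Fos had 0.154 CPM in Control 2 and 0 counts in the other two, Fosb did not exceed 0.732 CPM, and Atf3, Egr2 and Egr3 had 0 counts. Jun stood at 2.55, 9.63 and 3.66 CPM and Junb at 25.3, 20.7 and 18.4 CPM. Among 20 immediate-early genes, which respond within minutes to handling and growth signals, 12 were expressed, led by Nfkbia with 187, 103 and 167 CPM.

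Hox genes were expressed from the A and B clusters. In the A cluster 6 of 11 genes and in the B cluster 4 of 10 reached the rule, against 0 of 9 in the C cluster and 0 of 9 in the D cluster. Summed over genes, the A cluster stood at 63.8, 75.3 and 64.6 CPM and the B cluster at 28.3, 36.2 and 33.3 CPM. The C cluster summed to 0.473, 0.578 and 1.77 CPM and the D cluster to 0, 0.0385 and 0.0385 CPM. The leaders per length were Hoxa10 (10.4 RPKM), Hoxa7 (7.67 RPKM) and Hoxb5 (5.22 RPKM), then Hoxa9 (3.23 RPKM). Hoxa10 stood at 22.6, 30.2 and 26.9 CPM. Hoxa9 was the steadiest of those expressed, at 10.3, 10.9 and 10.01 CPM. Hoxb4, known for expanding stem cells when overproduced, stood at 4.58, 4.28 and 3.85 CPM. All these levels were far below that of their partner Meis1 per length.

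**Figure D3:**
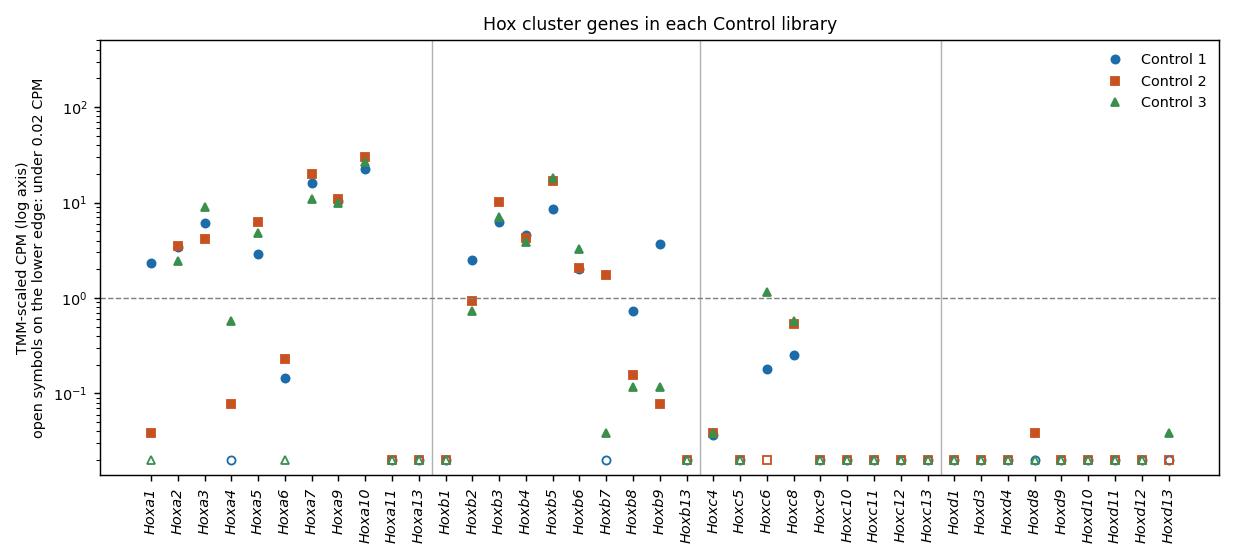
Level of the 39 Hox cluster genes in the 3 Control libraries as TMM-scaled CPM on a log axis, ordered by cluster and number, with the dashed line at 1 CPM and open symbols for values under 0.02 CPM. Genes above the line in all 3 libraries lie in the A and B clusters only, and Hoxa10 is highest.

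Chromatin regulators were nearly complete, with 28 of 30 DNA methylation and Polycomb genes expressed, or 93.3%, and 0 with 0 counts. The share was 49.2% over all genes and 51.7% over protein-coding genes. Rnf2, the catalytic RING1B subunit of Polycomb complex 1, stood at 119, 159 and 144 CPM, and its paralogue Ring1 at 2.25, 4.08 and 2.2 CPM. Eed and Ezh2 of Polycomb complex 2 stood at 92, 71.5 and 81.6 CPM and 59.3, 53 and 61.7 CPM. Bmi1, a self-renewal factor of complex 1, stood at 18.4, 39 and 29.8 CPM. Dnmt3a and Tet2, which are often mutated in clonal haematopoiesis, stood at 53.6, 44.2 and 41.9 CPM and 69.4, 83.6 and 83.5 CPM. Asxl1 of the same group was one of the steadiest, at 53.2, 55.5 and 54.7 CPM. Uhrf1, the partner of Dnmt1 in copying methylation at replication, was highest in Control 1, at 141, 65.2 and 74.3 CPM.

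Metabolic genes were broadly expressed. Of 27 glycolysis genes 19 were expressed, and the isoform genes Hkdc1, Pgk2, Pgam2 and Pklr had 0 counts. Aldoa led with 703 RPKM, followed by Ldha with 666 RPKM, Pkm with 424 RPKM, Gapdh with 349 RPKM and Pgk1 with 252 RPKM. Ldha, which turns pyruvate into lactate, was even between libraries at 1181, 1200 and 1244 CPM. Pkm, pyruvate kinase, stood at 869, 1187 and 1034 CPM. Hk3, a hexokinase of myeloid cells, was the most uneven member at 10 CPM or more, at 27.5, 7.78 and 31 CPM, with Control 2 lowest. Pgk1, Pkm, Gapdh and Eno1 share 53.9%, 25.8%, 24.7% and 26% of their 50-base words with other annotated transcripts, so reads may have been split between copies and their levels are uncertain. Of 16 genes for the transport of glucose, lactate and pyruvate 6 were expressed, or 37.5%, the lowest share of the 12 metabolic lists. Among the glucose transporter genes Slc2a3 and Slc2a1 led, at 75.2, 57.9 and 54.8 CPM and 24.3, 31.5 and 25.9 CPM. Slc2a5 and Slc2a6 had 0 counts and the insulin-responsive transporter Slc2a4 did not exceed 0.462 CPM.

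Genes of mitochondrial pyruvate use were expressed beside them. Pdk3 was the leading pyruvate dehydrogenase kinase, an enzyme that holds pyruvate out of the mitochondrial cycle, at 103, 116 and 83.8 CPM. Pdk2 and Pdk1 stood at 47.5, 27 and 24.1 CPM and 28, 41.2 and 32.7 CPM, and Pdk4 at 1.82, 0.231 and 1.12 CPM. The target enzyme genes Pdhb and Pdha1 stood at 186, 242 and 209.7 CPM and 152, 140.2 and 114 CPM. The pyruvate carrier gene Mpc1 was measured at 149, 181 and 207 CPM. In the tricarboxylic acid cycle 21 of 23 genes were expressed, led by Mdh1 (362 RPKM) and Mdh2 (361 RPKM). Idh3b was the steadiest of them at 248, 253 and 247 CPM, and Aco1, which doubles as an iron sensor, the most uneven of those at 10 CPM or more, at 44.5, 18.7 and 12.3 CPM. Cs, citrate synthase, was uneven too, at 225, 149.9 and 106 CPM, with Control 1 highest.

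Respiratory chain subunits encoded in the nucleus were expressed for 44 of 49 genes, and the other 5, Cox4i2, Cox7a1, Cox8b, Cox6a2 and Cyct, are isoform genes of other tissues. Their sums were 11990.5, 11659.8 and 12263 CPM. Cox4i1 led with 791 RPKM, followed by Uqcrb with 729 RPKM. Fatty acid oxidation had 17 of 19 genes expressed, with Cpt1a, the entry step, at 75.9, 67.7 and 83.5 CPM. Ppargc1a, the coactivator known for driving mitochondrial biogenesis, was low and highest in Control 1, at 2.95, 0.154 and 0.0770 CPM. Lipid and cholesterol synthesis had 22 of 24 genes expressed. Hmgcs1, an early enzyme of cholesterol synthesis, had 0 counts in all 3 libraries.

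Serine and polyamine genes were expressed as well. Phgdh, the first step of serine synthesis, stood at 239, 262 and 245 CPM, and Odc1, the first step of polyamine synthesis, at 51.7, 52.3 and 46.6 CPM. Of the antioxidant list 26 of 30 genes were expressed. Gpx1, glutathione peroxidase 1, led with 1602 RPKM and stood at 1652, 1765 and 1734 CPM. Prdx6, a peroxiredoxin, had nearly the same level in every library, at 970.4, 964 and 967 CPM. Hmox1, inducible haem oxygenase, was the opposite case at 0.0364, 12.5 and 6.43 CPM. Ferritin genes were among the most abundant transcripts, with Ftl1 at 2303, 2438 and 2477 CPM and Fth1 at 1672, 1951 and 1935 CPM, and Ftl1, with 50.9% of its words shared, is uncertain. Of the hypoxia factors, Hif1a stood at 30.3, 67.6 and 15.1 CPM and Epas1 at 0.255, 5.9 and 3.47 CPM, and Hif1a led per length in all 3 libraries although its level varied with a CV of 71.7%.

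The leading genes of the G1 and S phases had higher per-length levels than those of mitosis. Of 24 cyclin, CDK and G1/S genes 22 were expressed, led by Cdk4 (225 RPKM), Pcna (221 RPKM) and the replicative helicase genes Mcm7 (95 RPKM) and Mcm6 (87 RPKM). Mcm6 stood at 466, 353 and 317 CPM. The summed level of this list was 3962, 3305 and 3266 CPM, and 15 of its 22 expressed genes were highest in Control 1, against 30.6% of all expressed genes. Control 1 was also the library with the highest Cd48 and Mpo, and the part of other progenitors in these values was not tested. Of 20 G2 and mitosis genes 18 were expressed, led by Ccnb2 (40.2 RPKM) and Ccnb1 (22.9 RPKM). Mki67, the Ki-67 gene, stood at 53.2, 35.8 and 50.6 CPM, and the summed level of the mitosis list was 598, 456 and 526 CPM. Among the brakes, Cdkn2d and Cdkn1b, which encode the inhibitors p19 and p27, stood at 74.2, 107 and 85 CPM and 103, 122 and 73.3 CPM. Cdkn1c, the p57 gene tied to stem cell quiescence, was low at 5.05, 7.09 and 7.43 CPM, Cdkn1a stood at 1.96, 1.66 and 0 CPM, and Cdkn2a and Cdkn2b had 0 counts.

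Of 18 BCL2 family genes 9 were expressed, or 50%, close to the 49.2% of all genes. The survival genes Mcl1, Bcl2l1 and Bcl2 stood at 52, 70.5 and 62.5 CPM, 36.1, 40.5 and 34 CPM and 79.1, 70.7 and 83.8 CPM. Of their antagonists, Bax stood at 58.1, 63.2 and 42.4 CPM, Bid at 62.1, 91.6 and 45.9 CPM and Bcl2l11, the BIM gene, at 3.6, 5.09 and 3.5 CPM. The Bcl2a1 copies are near-identical and their counts are uncertain.

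Interferon response genes were expressed for 21 of 25 members, or 84%, in cells taken 8 weeks after the last poly(I:C) injection. Over all genes the share was 49.2%. Ifitm3 led with 1067, 1036 and 1214 CPM. Oasl2, an antiviral gene, stood at 123, 166 and 148 CPM and Ifi27 at 214, 182 and 194 CPM. The CV of Ifitm3 was 8.61%, and the sums over the list were 2746, 2645 and 2765 CPM. Gbp2, a guanylate-binding GTPase, was uneven, at 110.1, 137 and 193 CPM, with Control 3 highest. Isg15 was lower, at 10.4, 8.09 and 7.63 CPM, and Cxcl10 reached at most 2.33 CPM. Mx1, whose promoter drives the Cre of these mice, stood at 0.327, 0.193 and 1.77 CPM. A further group of interferon-inducible GTPases, named after their values were seen, was led by Tgtp2 at 3078, 2625 and 3061 CPM, or 1039.7 RPKM per length. Of its 50-base words 86.6% also occur in another gene's transcripts, so this value is uncertain. Ifi47 and Irgm1, which share 2.54% and 0.310%, stood at 443, 449.6 and 509.7 CPM and 283, 308 and 282 CPM. Every host had been irradiated and injected, so irradiation, poly(I:C) and the baseline state of these cells cannot be told apart.

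The most abundant genes were those of translation, the cytoskeleton and protein folding. Eef1a1, the elongation factor that delivers tRNA to the ribosome, was first both by CPM and per length, at 13409.5, 15184 and 13322 CPM and 7788 RPKM. Per length it was followed by B2m, the light chain of MHC class I, with 6452 RPKM, and by the ribosomal protein gene Rps6 with 4741 RPKM. B2m stood at 5336, 5673 and 5638 CPM. Actb, a cytoskeletal actin, Rpl3 and the chaperone gene Hspa8 took more of the counts, at 7747, 8464 and 6592 CPM, 6352, 7729 and 6642 CPM and 7907, 6379.5 and 6430.1 CPM, but had per-length levels of 3959 RPKM, 3680.1 RPKM and 2187 RPKM. The 10 genes with the most counts took 6.41% to 6.87% of the counts and the 100 with the most 24.4% to 25.4%. The libraries shared 91 genes of their top 100. Cytosolic ribosomal protein genes together took 13.8%, 15.7% and 14.7% of all CPM, and 83 of 87 were expressed. Rpl26, which did not pass the rule, and Rpl34, which did, were far below the family's leaders, at 0.473, 0.231 and 0.270 CPM and 4.33, 3.74 and 3.89 CPM, with 22.7% and 7.78% of their words shared with other genes. Ribosomal subunits are needed in every cell, so a count near 0 in this table, as for Hmgcs1 above, does not show that a transcript was missing from the cells. Several leaders share sequence with other annotated genes, with 48% of the 50-base words for Ubb, 43.8% for Rps6, 39.4% for Eef1a1, 38.6% for Hspa8 and 35% for Rpl3, against 0% for B2m and 0% for Car2.

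Translation genes of this kind are known to begin with a run of pyrimidines, the terminal oligopyrimidine tract that links them to mTOR signalling. The starts annotated by RefSeq on GRCm38.p6 were searched on the coding strand for C followed by at least 4 letters that were each C or T, beginning within 5 bases of the start. The run was present for 27 of 56 ribosomal protein genes with a start in the table and a mean of 100 CPM or more, or 48.2%, against 22.0% of 16524 genes with a start and 18.6% of those with 0 counts. Beginning exactly at the annotated start, it was present for 25.0% of the ribosomal protein genes against 2.78% of all genes. Of the 100 most abundant genes, 72 had a start, and 22 of these, or 30.6%, held the run within 5 bases. These shares are a description of annotated letters. The 30 bases around the start of 4 of the most abundant such genes, 15 before it and 15 from it on, are given below. They are shown because they hold the run, which is in capitals. In the order shown, the run begins at -5, -1, -2 and -5 bases from the annotated start, so in none exactly at it.
Eef1a1, chr9:78481710-78481739, minus strand: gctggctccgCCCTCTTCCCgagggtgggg
Rps6, chr4:86857353-86857382, minus strand: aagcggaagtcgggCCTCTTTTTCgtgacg
Rps18, chr17:33955651-33955680, minus strand: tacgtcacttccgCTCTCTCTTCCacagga
Rps9, chr7:3704026-3704055, plus strand: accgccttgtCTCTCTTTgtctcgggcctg

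Non-coding loci were counted as well. Malat1, a nuclear long non-coding RNA, stood at 2086, 1969 and 2986 CPM, highest in Control 3, and Gas5, a host of small nucleolar RNAs, at 1535, 1685 and 1719 CPM. Xist, the RNA of the inactive X chromosome, stood at 203, 147 and 201 CPM, and the Y-linked genes Eif2s3y, Uty, Usp9y, Zfy1 and Zfy2 had 0 counts, with Ddx3y at 3 counts and Kdm5d at 2 counts in all. The transcript Gt(ROSA)26Sor at the Rosa26 locus stood at 95.2, 110.4 and 119 CPM. It overlaps a neighbouring gene, and without a stated strand setting reads of the pair cannot be told apart. Of 521 miRNA hairpin loci counted, 11 were expressed and 426 had 0 counts. Mir155 stood at 92.7, 55 and 77.9 CPM, Mir142 at 18.3, 14.9 and 20.7 CPM and Mir101a at 14, 15.8 and 21.7 CPM. These values count reads over the hairpin locus and give no level of a mature miRNA. Mir142 is known as a locus of blood cells and Mir155 as one of immune activation. Their mature sequences from RefSeq are shown with the seed, bases 2 to 8, in capitals, because these 3 loci were among the few expressed.
miR-142a-3p, chr11:87756903-87756925, plus strand: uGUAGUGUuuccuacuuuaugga
miR-142a-5p, chr11:87756867-87756887, plus strand: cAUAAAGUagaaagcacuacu
miR-155-5p, chr16:84714143-84714165, plus strand: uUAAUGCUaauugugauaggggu
miR-101a-3p, chr4:101346957-101346977, minus strand: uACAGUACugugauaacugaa

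Gene families of other tissues were mostly at 0 counts. Of 1108 olfactory receptor genes 2 were expressed and 1015, or 91.6%, had 0 counts. The exceptions, Olfr613 and Olfr856-ps1, stood at 51.7, 30.1 and 81.4 CPM and 50.5, 33 and 74.4 CPM, with Control 3 highest for both. Of 332 vomeronasal receptor genes 2 were expressed, and of 43 beta-defensin genes 0 were expressed and 40 had 0 counts. Of 54 keratin genes 2 were expressed, and Krt18, an epithelial keratin also listed for LT-HSCs, stood at 186, 197 and 140.2 CPM. Of 24 solid-organ genes only Nphs1, the nephrin gene of kidney podocytes, was expressed, at 13.2, 13.9 and 14.4 CPM, with a CV of 4.39%, while 14 had 0 counts, Alb, Ins2 and Myh7 among them. Of 18 fetal and pluripotency genes 4 were expressed. Hmga2, a fetal stem cell gene and known IMP1 and let-7 target, stood at 21.4, 33.4 and 26.7 CPM. Igf2bp1, which encodes IMP1, had 1 count in all 3 libraries, which is at the floor. Its paralogues Igf2bp2 and Igf2bp3 stood at 7.24, 9.63 and 4.35 CPM and 3.05, 1.97 and 2.27 CPM. Lin28a, Lin28b, H19 and the embryonic globin genes Hbb-y, Hbb-bh1 and Hba-x had 0 counts. Nanog stood at 143, 109 and 119.6 CPM, but this gene is known for processed copies elsewhere in the genome and its counts are uncertain.

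Within 36 sets of paralogues the leading member was found per length in each library. In 29 sets the leader stayed the same under every length choice and with each library left out. Meis1 took 99.8%, 99.9% and 99.9% of the summed RPKM of the MEIS genes. Pkm, Msi2 and Eef1a1 took 100% in each library, since Pklr, Msi1 and Eef1a2 had 0 counts, and the shared sequence of Pkm and Eef1a1 given above bears on these values. Cdk4 took 98.8%, 99.3% and 99.6% against Cdk6, Aldoa 97.9%, 96.4% and 97.2% of the aldolases, and Ldha 81.1%, 75.3% and 79.4% of the lactate dehydrogenases. Among signalling genes, Jak1 took 70.2%, 67.4% and 71.8% of the JAK genes and Stat5a 73%, 75.6% and 69.1% of the STAT5 pair. Gata2 took 59.2%, 63.3% and 66.6% of the blood GATA genes, ahead of Gata1. Ccnd2 took 57.8%, 60.9% and 65.3% of the D cyclins.

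In other sets the leading member by mean did not lead in every library. The Slc2a3 and Tcf4 sets are of this kind, although they belong to the 29 sets above. Hk2 took 38.2%, 49.8% and 53.1% of the hexokinases and led Hk1 in 2 of 3 libraries. Slc2a3 also led Slc2a1 in 2 of 3, with shares of 52.2%, 45.4% and 48.9%. Runx1 led Runx3 in 2 of 3, with 51.1%, 44.3% and 37.4%, and Foxo1 led Foxo4 in 2 of 3, with 78.1%, 59.1% and 48.7%, while Foxo3, a FOXO factor known for stem cell maintenance, stood at 0.109, 2.35 and 0 CPM. Tcf4 led Tcf12 in 2 of 3 libraries among the E proteins, and Pik3cg led Pik3cd in 2 of 3 among class I PI3-kinases. The order within these pairs therefore depended on the library, and differences between their members were not tested.

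**Figure D4:**
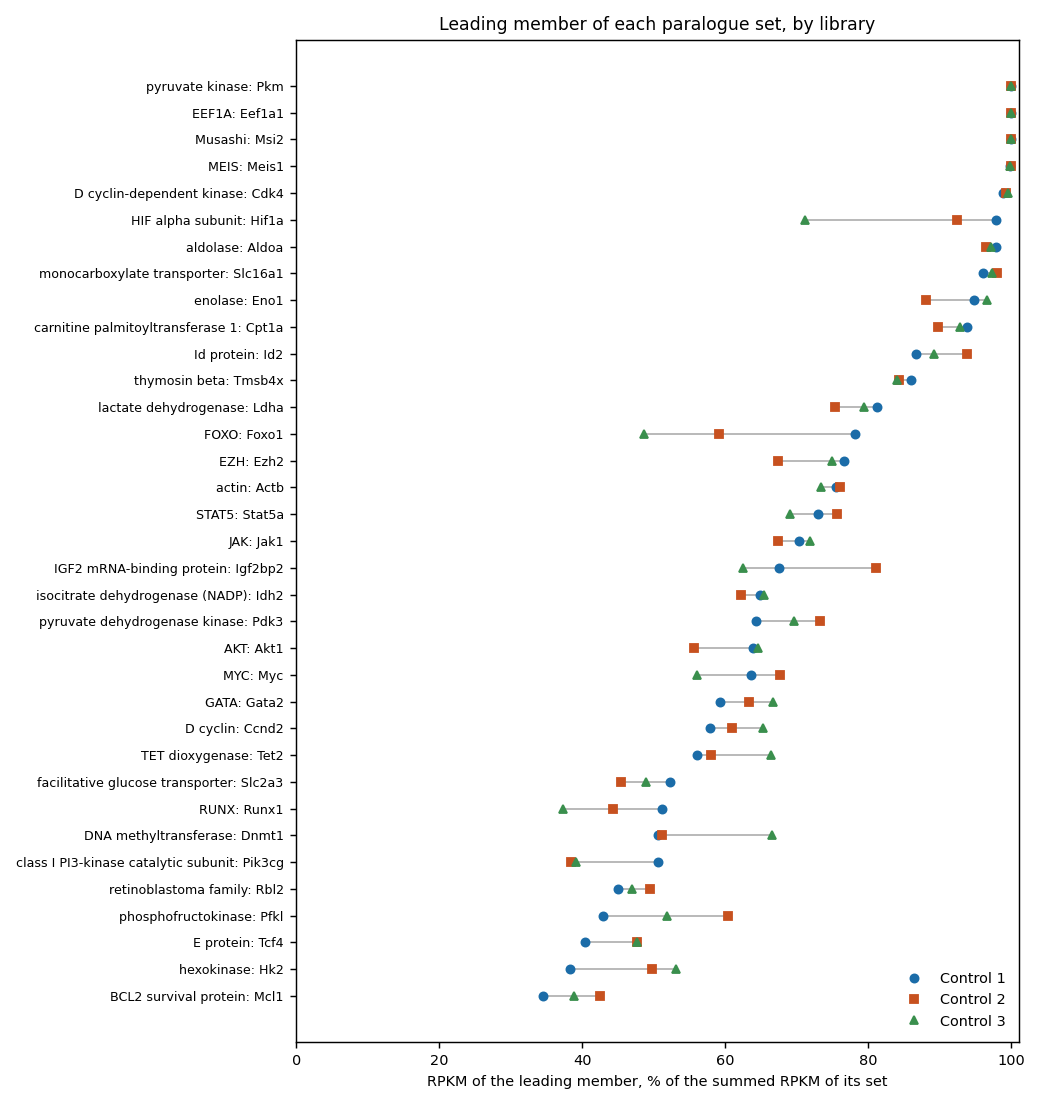
Share of the summed RPKM of each of 35 of the 36 paralogue sets taken by its leading member, in percent, 1 symbol per Control library, with a grey line from the lowest to the highest library. The points of Meis1, Pkm and Cdk4 lie together near 100%, and those of Foxo1, Hif1a and Runx1 are spread widely.

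The spread between libraries fell with level. The median CV was 79.7% for genes at a mean of 1 to 3 CPM, 29.4% at 10 to 30 CPM, 11.6% at 100 to 300 CPM and 6.63% at 1000 CPM or more. For the 8651 genes at 10 CPM or more it was 18.8%, against 2.90% from counting error alone. Among the most variable of these, Psma8, a testis proteasome subunit, stood at 22.9, 68 and 3.97 CPM, Slc12a7, a potassium-chloride cotransporter, at 5.71, 5.97 and 37.7 CPM, and Dclre1a, a nuclease gene of crosslink repair, at 5.38, 31.6 and 2.58 CPM. Slc12a7 and Dclre1a were high in a single library, and Psma8 was highest in Control 2 and lowest in Control 3. Prkci, an atypical protein kinase C, stood at 27.1, 1.54 and 9.09 CPM, with Control 1 highest. Among genes at 50 CPM or more the steadiest was Tes, a focal adhesion gene, at 145, 145 and 145 CPM, followed by Rtcb, an RNA ligase, at 364, 364 and 365 CPM. Rhoa, a small GTPase, stood at 364, 367 and 368 CPM. With 3 values, a CV under the counting error is possible, as for Tes.

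**Figure D5:**
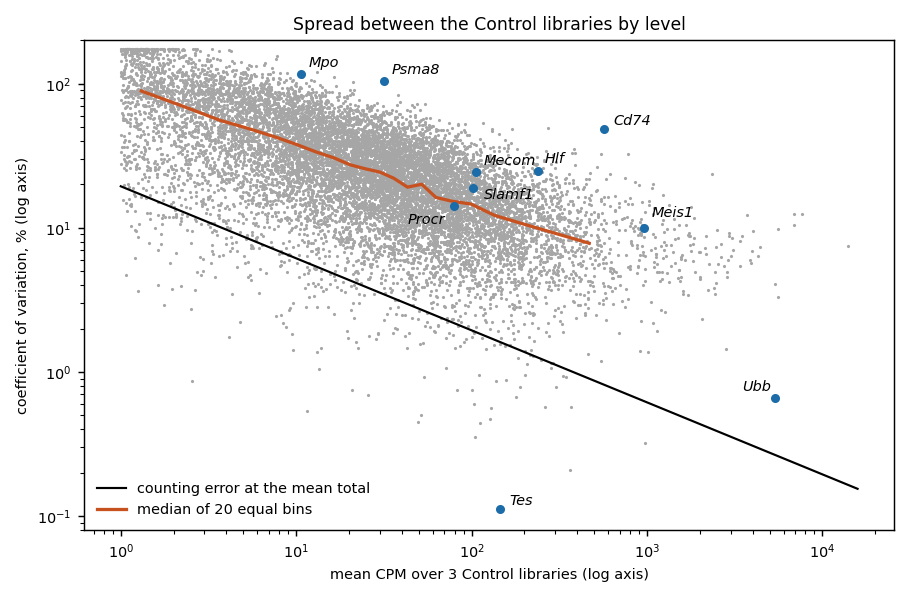
Coefficient of variation over the 3 Control libraries, in percent, against mean CPM, both on log axes, 1 grey point per gene at 1 CPM or more, with the median of 20 bins of equal gene number (orange) and the counting error (black). The median falls with level and stays above the counting error, and Mpo, Psma8 and Cd74 lie far above it.

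Some genes were counted in a single library. Control 1 had 265 genes with more than 3 counts there and 0 in the other two, Control 2 had 161 and Control 3 had 259. None of these reached 10 CPM, and together they held 0.0260% to 0.0317% of the counts of their library. The highest were Esrrg, an orphan nuclear receptor, at 8.0 CPM in Control 1, Anxa3, an annexin, at 9.94 CPM in Control 2, and Flrt3, a leucine-rich transmembrane protein, at 8.16 CPM in Control 3. At the low end of the table, presence or absence differed between samples of 200 cells of the same kind.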

How the data were processed

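RNA of the 3 Control libraries was analysed from raw counts per gene that the authors deposited, 1 column per library. Per the submitters' processing notes, the tools and builds included TopHat2 2.0.10 and mm9; which program counted reads, on which annotation and with what strand setting, is not stated. Columns were matched by name, and 0 were left unmatched. Symbols came from RefSeq (GRCm38.p6) for 21615 of 21761 Entrez identifiers; the other 146 held 0.0516% to 0.0553% of counts per library. Lengths, of the longest GENCODE M21 transcript, were found for 20328 genes. CPM were scaled with the TMM factors of edgeR 4.0.16 in R 4.3.3, computed over the 3 libraries (0.986 to 1.01), and analysed in Python 3.11.15. Depth was 25749898 to 27338450 counts, and 1 count was 0.0364 to 0.0385 CPM. The median counting error of genes at 10 CPM or more was 2.90% of the mean. Shared sequence is the share of a gene's 50-base words found in another gene's transcripts.

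There were no tests, as only 1 group was described. The spread calculation was tested on simulated data. Members, 61 gene lists and 36 paralogue sets were chosen with earlier results of these data known. Genes were named by rule: markers and gate genes, the 20 most abundant, the 6 leading, most and least variable and 0-count members of each list, paralogues, the 10 most and 10 least variable genes, and the 5 leading genes counted in a single library. Others were named after their values were seen, and some genes the rule covers are not reported here. Alternatives were other scalings (DESeq2 1.42.0 size factors among them), thresholds, lengths, and each library left out.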

Additional observations from a re-analysis of the deposited data

How the results depend on the processing

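The count of expressed genes, 10716, ranged from 9228 (1 RPKM) to 11341 (10 counts in each library) over the other thresholds and scalings, and from 10921 to 11086 with a library left out, where only 2 libraries had to pass. Expressed members of the lists, 740, ranged from 709 (2 CPM) to 771 (0.5 CPM) and from 761 to 768 with a library left out. Genes with 0 counts, 6440, became 6464 after thinning to the smallest total and 6787 to 7331 with a library left out. The mean share of the 10 and of the 100 leading genes, 6.58% and 24.9% of counts, was 9.54% and 37.9% of summed RPKM. The median CV of 18.8% was 23.8% for genes at a mean of 1 CPM or more, 14.9% at 30 CPM or more, and 14.3% to 15.6% with a library left out, where 2 values form each CV; other scalings left it at 18.8%. Leaders of the 36 paralogue sets were kept in 30 sets with the median transcript length, 33 with the shortest, 35 with CPM and 35 to 36 with a library left out. The sets that changed were the hexokinase, DNA methyltransferase, TET, class I PI3-kinase, FOXO, RUNX and BCL2 survival sets; leaving out Control 3 changed the hexokinase leader from Hk2 to Hk1. No paired analysis was possible because a single group was described and no groups were compared. Amplified reads of 200 cells carry no molecular identifiers, so how many starting molecules lie behind a value near 1 CPM cannot be read from the counts.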
